A study of Mus musculus with 5 samples.

Results

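The comparison described here set 1 library of B16F10 cells grown in dynamic suspension culture against 1 library of B16F10 cells labelled shControl, across all 54100 Ensembl genes of the deposited table. These are 2 of the 5 libraries of the series, chosen by their columns and by nothing measured in them. B16F10 is a pigmented mouse skin melanoma line, and the series by its title and design text asks how HIF-1α and p53 relate to stem-like melanoma cells enriched in suspension. Both libraries carry the genotype label WT and the treatment label NO. The shControl label names a line with a control hairpin construct and does not give its sequence or vector, and the dynamic suspension label names no construct. The same growth protocol is given for both: serum-free DMEM/F12 without added growth factors, with shaking (60 to 80 rpm) over a period of 7 to 10 days. Culture method and construct therefore cannot be told apart, and the titles alone say how the cultures differed. In each group 3 repeats were pooled before sequencing, so each group has 1 library, no difference has a replicate check, and no test across conditions was possible. The other 3 libraries (conventional 3D culture, a library labelled as a knockdown of HIF-1α and one labelled as its overexpression) are given only beside single genes.

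Tumour cells kept in suspension form spheroids, in which nutrients and oxygen reach inner cells less readily than outer ones. When oxygen is scarce, HIF-1α escapes hydroxylation by the prolyl hydroxylases of the Egln family and degradation through Vhl, pairs with Arnt, and induces genes of glucose uptake, glycolysis and angiogenesis. Cells that leave the cell cycle stop expressing the genes of DNA replication and mitosis, which are repressed through E2F sites and CHR elements in their promoters. Type I interferon acts through factors such as Stat2 and Irf9, which bind interferon response elements and induce antiviral and antigen-presentation genes.

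The deposited estimated counts summed to 61014260 in dynamic suspension and 59493240 in shControl, with 20571 and 20653 genes above 0. Both columns are of the same kind, with low values piled up at 4, so the kind of column does not differ between the libraries compared. The labelled HIF-1α libraries hold plain deposited counts, so rankings that include them set beside each other values that may differ in unit. All levels below are in CPM, the usual count per library total, with totals scaled by the TMM method, and are given as dynamic suspension against shControl. A gene was called higher or lower when it differed by 2-fold or more (a log2 ratio of 1 or more in size), averaged at least 1 CPM over both libraries and had a 95% counting interval that left out a ratio of 1. Intervals cover counting error only and may be too narrow for estimated counts. A dagger (†) marks genes that share 10% or more of their 31-base stretches with another annotated gene, through overlap or similar sequence, whose values are uncertain. Melanocyte genes were abundant in both libraries, and Cdkn2a, Ptprc, Cd3e and Epcam had 0 counts in both. A floor of 3 counts equals 0.0497 and 0.0487 CPM. That floor treats estimated counts as plain counts, so levels and folds set by it are approximate and not strict limits. As to other cell types, 1 of 12 immune markers (Cd68, at 13.2 against 3.56 CPM), 1 of 8 endothelial, 7 of 10 fibroblast, 0 of 10 epithelial and 0 of 6 erythroid genes reached 1 CPM. The summed levels were 14.3 against 4.77 CPM for immune, 1.85 against 4.14 CPM for endothelial, 40.0 against 41.0 CPM for fibroblast and 0.679 against 0.779 CPM for epithelial genes.

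Among the 12940 genes averaging 1 CPM or more, 1787 (13.8%) were higher and 1930 (14.9%) lower in dynamic suspension, 28.7% in all. These shares are the background for every count of genes below. The gene lists below and their members were chosen with earlier results of these data known. Counts in the lists are therefore descriptions and were not tested against these shares. The median log2 ratio was -0.03, with quartiles of -0.63 and 0.58. Beyond 4-fold, 468 genes were higher and 552 lower, and beyond 16-fold 76 and 79. The 15 protein-coding genes with the largest ratios among those of own sequence and at least 10 CPM included the interferon-stimulated genes Oasl2, Usp18, Rsad2, Xaf1, Dhx58 and Parp14. All of the 15 with the smallest ratios but Tg and Slc35f1 are genes of mitosis, cell division, DNA replication or repair. Values for these genes follow with their groups, and outside the groups stood Atp8b3, a lipid flippase (log2 ratio 4.18), and Rasd2, a small GTPase (26.5 against 2.05 CPM), among the highest, and Pif1, a DNA helicase (0.728 against 20.8 CPM), and Shcbp1, a protein of the division midbody (2.05 against 41.1 CPM), among the lowest.

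**Figure D1:**
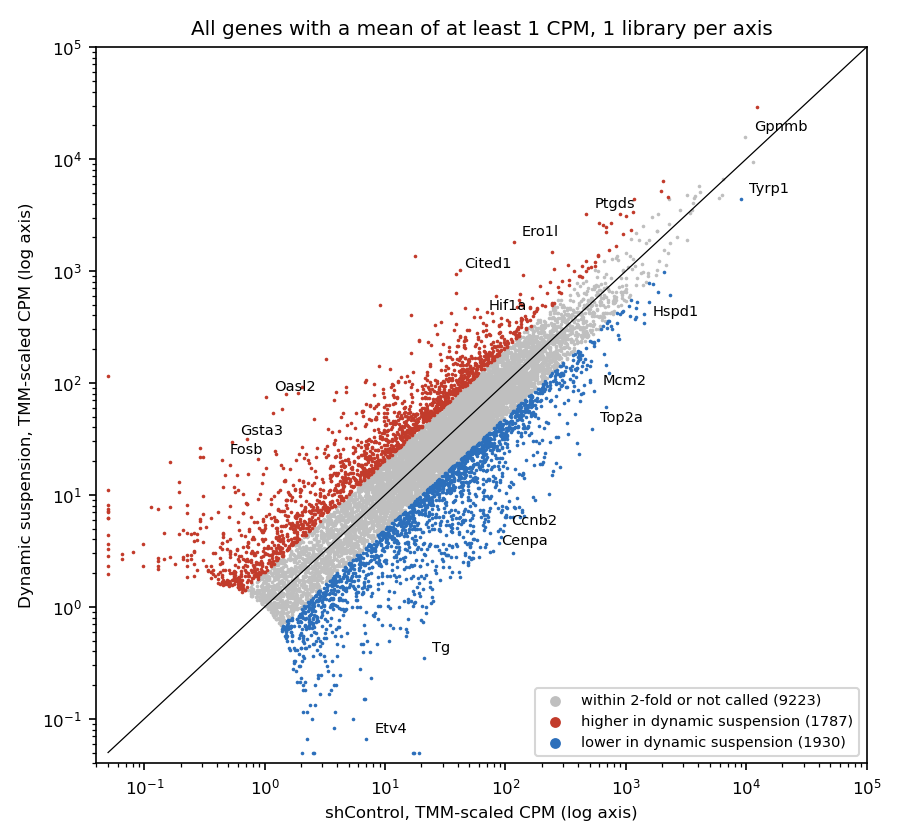
Each point is 1 of the 12940 genes averaging 1 CPM or more, with its TMM-scaled CPM in shControl on the horizontal and in dynamic suspension on the vertical log axis, values under 0.05 CPM being drawn at 0.05. The 1787 genes called higher lie above the line of equality and the 1930 called lower lie below it, among them Oasl2 at 74.3 against 1.02 CPM and Cenpa at 3.13 against 78.3 CPM.

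Genes of cell division had the lowest median of any list. All 34 of 34 mitosis and spindle genes were lower beyond 2-fold, against 14.9% of all genes, with a median log2 ratio of -3.94 against -0.03 over all genes and a range from -4.63 to -3.16. Their levels ran from 1.94 to 39.1 CPM in dynamic suspension (median 6.44) and from 21.9 to 522 CPM in shControl (median 105). In these bulk libraries, fewer dividing cells and less RNA per dividing cell cannot be told apart.

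The cyclins and the kinase that drive entry into mitosis were low together in dynamic suspension. Ccnb2, a mitotic cyclin (chr9:70407692-70421547, minus strand, GRCm38, GENCODE M21), stood at 4.73 against 95.6 CPM (log2 ratio -4.33, interval -4.51 to -4.16). The other 3 libraries had 44.5, 80.8 and 15.5 CPM, in the order conventional 3D culture, labelled knockdown and overexpression. Ccnb1† was at 7.03 against 137 CPM, Ccna2†, the cyclin of S phase and G2, at 10.2 against 230.1 CPM and Cdk1, their partner kinase, at 18.8 against 202 CPM. The dynamic suspension value of Ccnb2 was thus the lowest of the 5 libraries. Plk1†, a kinase of spindle assembly, was at 6.36 against 116 CPM, and Aurkb, the kinase of the chromosomal passenger complex, at 7.40 against 136 CPM (log2 ratio -4.20, interval -4.34 to -4.07). Its partner in that complex, Birc5 (survivin), was at 6.31 against 133 CPM (log2 ratio -4.39).

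Parts of the kinetochore and spindle followed the same direction. Cenpa, the histone that marks centromeres, had the lowest ratio of the list at 3.13 against 78.3 CPM (log2 ratio -4.63, interval -4.86 to -4.44). Its level in the other 3 libraries was 28.5, 76.8 and 17.7 CPM in the same order as above. Cenph, an inner kinetochore protein, was at 0.761 against 19.8 CPM, and Ndc80†, which grips microtubules, at 2.5 against 48.8 CPM. The motor gene Kif23 was at 4.22 against 92.4 CPM, Kif20b at 2.38 against 48.7 CPM and Kif15 at 2.45 against 48.5 CPM, all motors of spindle or division furrow. Hmmr, a spindle-associated protein also known as a hyaluronan receptor, was at 3.69 against 89.1 CPM, and Cep55, needed for the final cut between daughter cells, at 2.71 against 53.9 CPM. The member of the list nearest to 0 was Bub1b, a checkpoint kinase, still at 15.2 against 136 CPM (log2 ratio -3.16). Mki67, the usual marker of proliferating cells, was at 17.8 against 283 CPM, and Top2a, which untangles chromosomes, at 39.1 against 522 CPM, the highest level of the list in both libraries as CPM without correction for length.

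**Figure D2:**
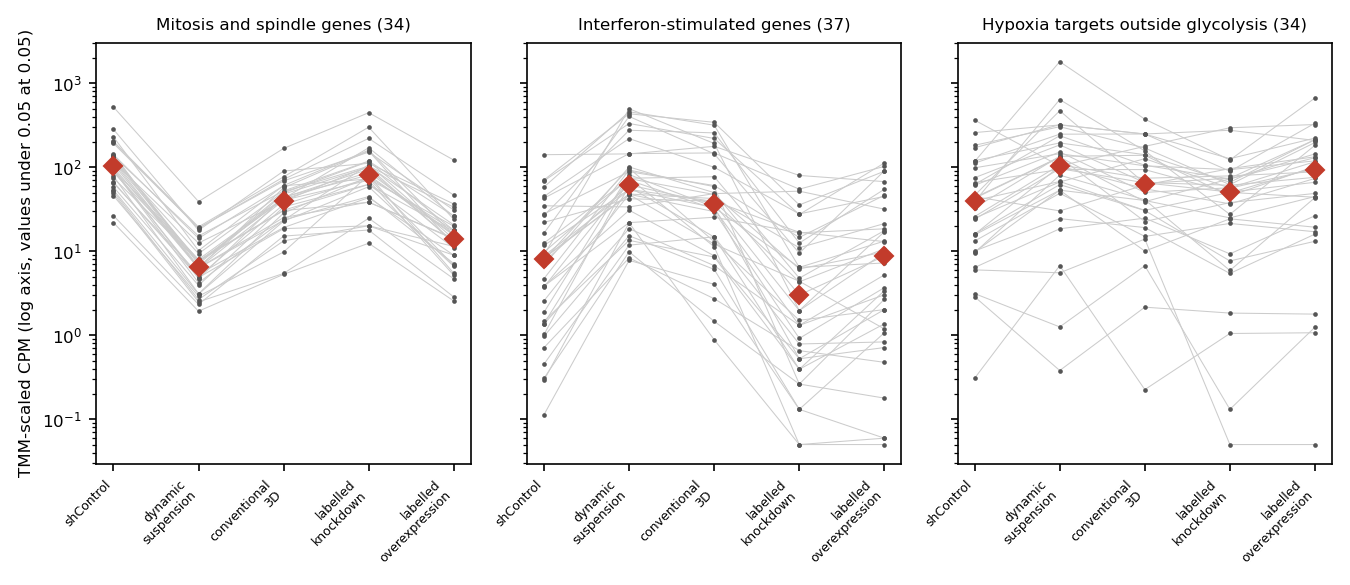
Points are the measured genes of 3 lists, joined by a line per gene across the 5 libraries, on a log axis of TMM-scaled CPM with values under 0.05 drawn at 0.05, and diamonds are list medians. The mitosis genes have a median of 6.44 CPM in dynamic suspension and 105 in shControl, and the interferon-stimulated genes 61.7 and 8.02.

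Genes of DNA replication and homologous repair were lower in 35 of 37 cases and higher in 0 (median log2 ratio -2.93). The 7 listed genes named Mcm encode subunits of the replicative helicase or a factor that acts with it. All were lower, from Mcm2 at 85.0 against 542 CPM (log2 ratio -2.67) to Mcm10 at 6.41 against 98.8 CPM (-3.94). The licensing factors Cdc6 and Cdt1 stood at 6.55 against 53.6 and 10.4 against 101 CPM, and Orc1†, of the origin recognition complex, at 0.877 against 21.8 CPM. Of the enzymes that supply nucleotides, Rrm2† was at 23.3 against 408 CPM and Tk1 at 9.48 against 170.1 CPM. Pclaf, a partner of the sliding clamp Pcna, was at 8.92 against 174 CPM (log2 ratio -4.28, interval -4.42 to -4.16), and Bard1, the partner of Brca1, at 1.08 against 24.0 CPM. The members inside 2-fold were Brca2, at 8.72 against 15.8 CPM, and Ung, a repair glycosylase, at 8.26 against 15.9 CPM. Brca1 itself was at 28.4 against 103 CPM and at 477 CPM in conventional 3D culture.

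Genes that set the passage through G1 were mixed. Of 19 G1 cyclins, inhibitors and pocket proteins, 2 were higher and 8 lower (median -0.73). Cdkn1b, the inhibitor p27, was at 193 against 66.8 CPM (log2 ratio 1.53) and Rbl2†, the pocket protein of quiescent cells, at 105 against 51.8 CPM, both higher. Lower genes included Ccnd1†, the cyclin induced by growth factors (85.2 against 362 CPM), Cdk6 (7.32 against 35.1 CPM), Ccne1 (16.5 against 65.7 CPM) and E2f2 (1.44 against 20.7 CPM). Ccnd2, at 884 against 662 CPM, and Cdkn1a, the inhibitor p21, at 434 against 424 CPM (log2 ratio 0.04, interval 0.01 to 0.06), did not pass 2-fold.

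Promoters of 3 of the genes that were lower are shown because each holds a motif that many members of its list hold. They are 90 bases upstream of the RefSeq start, from RefSeq on GRCm38.p6, read 5′ to 3′ on the gene's strand, with matches in capitals. In Ccnb2 (chr9:70421562-70421651, minus strand) and Cdc20 (chr4:118437344-118437433, minus strand), CCAAT marks the box bound by NF-Y, and in Cdc20 TTTGAA marks a CHR element. In Cdc6 (chr11:98907972-98908061, plus strand) the capitals are an E2F site on the reverse strand.
Ccnb2: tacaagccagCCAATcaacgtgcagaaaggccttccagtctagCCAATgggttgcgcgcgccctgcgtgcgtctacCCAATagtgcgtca
Cdc20: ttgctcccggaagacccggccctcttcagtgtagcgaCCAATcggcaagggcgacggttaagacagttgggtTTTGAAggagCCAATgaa
Cdc6: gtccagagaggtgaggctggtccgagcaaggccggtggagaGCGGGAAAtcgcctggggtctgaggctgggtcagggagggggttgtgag

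A promoter window (250 bases before to 50 after the start, 1 per gene, matched by symbol) was found for 28 of the 34 mitosis genes. A CHR element (TTTGAA or TTCGAA, either strand) lay in 21 of them (75%), against 13.6% of 9366 windows of measured genes, and the NF-Y box CCAAT in 21 (75%), against 39.7%. An E2F site (TTTCCCGC or TTTGGCGC, either strand) lay in 10 of 29 windows of replication and repair genes (34.5%), against 3.26% of all. A match is a description of letters and shows no binding.

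Interferon-stimulated genes were higher in dynamic suspension, most of them by more than 4-fold. Of 37 measured members 34 were higher and 0 lower, against 13.8% of all genes higher, with a median log2 ratio of 3.16. Among the 27 members of own sequence 25 were higher (median 3.03). Levels ran from 0.114 to 141 CPM in shControl (median 8.02) and from 7.80 to 498 CPM in dynamic suspension (median 61.7). The summed level of the 12 immune marker genes was 14.3 against 4.77 CPM, most of it from Cd68 (13.2 against 3.56 CPM, also higher). Ptprc and Cd3e had 0 counts in both libraries. Whether cells of other types contributed to the interferon-stimulated genes was not tested.

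Sensors and factors of the pathway were higher as well as its effectors. The RNA sensors Ddx58 (RIG-I), Ifih1 (MDA5) and Dhx58 were at 276 against 26.8, 61.7 against 7.50 and 47.7 against 2.58 CPM. Of the factors that carry the interferon signal, Stat2 was at 48.0 against 8.41 CPM, Irf9 at 74.1 against 9.77 CPM and Irf7 at 11.8 against 0.455 CPM. The antiviral effector genes had the largest ratios. Oasl2, of the oligoadenylate synthetase family (chr5:114896936-114912234, plus strand), stood at 74.3 against 1.02 CPM (log2 ratio 6.14, interval 5.82 to 6.56), the highest ratio among protein-coding genes of own sequence at 10 CPM or more. In the other libraries, again in that order, it was at 11.3, 0 and 0.0595 CPM, so dynamic suspension was the highest of the 5. Rsad2 (viperin), an enzyme that blocks viral replication, was at 403 against 16.5 CPM (log2 ratio 4.61, interval 4.52 to 4.70) and at 145, 9.52 and 90.8 CPM in the other libraries. Ifit3†, which binds viral RNA with its relatives, was at 498 against 9.01 CPM, Oas1a† at 58.5 against 1.38 CPM and Xaf1, a pro-apoptotic protein, at 92.5 against 4.74 CPM. The brake on the pathway was higher too: Usp18, which removes Isg15 from proteins and blocks the interferon receptor, was at 81.9 against 1.88 CPM (log2 ratio 5.42), and Isg15† at 70.1 against 3.77 CPM. Parp14, a mono-ADP-ribosyltransferase, was at 101 against 6.85 CPM. The 3 measured members inside 2-fold were Irf1 (42.3 against 22.1 CPM), Ifitm2† (144 against 141 CPM) and Samhd1 (33.7 against 34.8 CPM). Zbp1, a nucleic acid sensor outside the list, had 377 counts against 0, about 128-fold higher with shControl set at the floor of 3 counts.

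Antigen-presentation genes stood higher beside them, with 15 of 17 members of the class I pathway higher and 0 lower (median 1.85). Only 7 are of own sequence, and 5 of these were higher. B2m, the light chain of class I molecules, was at 895 against 409.6 CPM, and the heavy chain genes H2-K1† and H2-D1† at 243 against 19.0 and 334 against 92.3 CPM. The peptide transporter gene Tap1 was at 27.8 against 6.84 CPM, the loading factor Tapbpl at 12.9 against 4.48 CPM and Psmb10, of the immunoproteasome, at 31.7 against 11.5 CPM. Cd274†, which encodes the checkpoint ligand PD-L1, was at 77.8 against 8.17 CPM (log2 ratio 3.25). The members inside 2-fold, Psme1 and Nlrc5, had log2 ratios of 0.98 and 0.97.

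Of 21 measured chemokine, cytokine and NF-kappaB genes, 8 were higher and 0 lower (median 0.67). Ccl5, which attracts T cells, was at 107 against 6.98 CPM (log2 ratio 3.93, interval 3.80 to 4.08) and Il18 at 11.9 against 2.11 CPM. Nfkbiz, a nuclear modulator of NF-kappaB, was at 97.6 against 11.3 CPM, whereas the factors Rela (74.9 against 63.8 CPM) and Nfkb1 (65.0 against 91.5 CPM) and the chemokine Cxcl10 (47.5 against 35.8 CPM) did not pass 2-fold. Tnfrsf9 (4-1BB), a receptor of the TNF family, was at 82.2 against 3.93 CPM, 1 of the 15 highest ratios.

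The upstream sequences of Isg15 (chr4:156200841-156200930, minus strand) and Rsad2 (chr12:26456523-26456612, minus strand) are shown for their interferon response elements (TTTC, any 2 bases and TTTC again, on either strand, in capitals), Isg15 holding 3 overlapping matches and Rsad2 1.
Isg15: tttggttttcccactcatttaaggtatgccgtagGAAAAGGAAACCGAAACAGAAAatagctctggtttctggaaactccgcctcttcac
Rsad2: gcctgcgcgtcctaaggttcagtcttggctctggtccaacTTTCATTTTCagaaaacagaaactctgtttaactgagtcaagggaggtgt

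The element lay in 15 of 28 windows of interferon-stimulated genes (53.6%) and 5 of 14 of the class I genes (35.7%), against 2.8% of all windows.

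Hif1a and a majority of the listed hypoxia genes were higher in dynamic suspension. Of 9 measured HIF subunits and oxygen sensors 5 were higher and 0 lower (median log2 ratio 1.00). Hif1a (chr12:73901375-73947530, plus strand) was at 390.5 against 61.3 CPM, 6.37-fold higher (log2 ratio 2.67, interval 2.62 to 2.72). In the other libraries, in the order given for Ccnb2, Hif1a was at 542, 95.1 and 384 CPM, so conventional 3D culture was the highest of the 5. Per kilobase of exon its level was 66.2 against 10.4 CPM per kb, that of its partner Arnt 9.72 against 7.25 and that of Epas1, which encodes HIF-2α, 2.45 against 2.34. On that scale Hif1a exceeded Arnt in both libraries, and Epas1 lay below both. The prolyl hydroxylase Egln1, which marks HIF-1α for degradation and is itself a HIF target, was at 299 against 50.0 CPM (log2 ratio 2.58, interval 2.53 to 2.64), and at 99.6, 92.3 and 141 CPM in the other libraries, so that dynamic suspension was the highest of the 5. Vhl, the ubiquitin ligase subunit of that step, was at 112 against 41.9 CPM and Egln3 at 9.45 against 4.30 CPM. Cited2, which competes with HIF-1α for its co-activator, was at 324 against 162 CPM (log2 ratio 1.00, at the 2-fold limit). Egln2, Hif1an (the asparaginyl hydroxylase), Arnt and Epas1 did not pass 2-fold. Cited1, a relative of Cited2 outside the list, was at 940.1 against 38.5 CPM (log2 ratio 4.61, interval 4.55 to 4.67) and at 207, 16.9 and 279.9 CPM in the other libraries.

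The list of hypoxia targets that are not glycolytic had 22 of 34 genes higher and 3 lower, against 13.8% and 14.9% of all genes (median 1.48). Those of own sequence number 26, with 15 higher and 3 lower. Ero1l, an oxidase that forms disulfide bonds in the endoplasmic reticulum (chr14:45283087-45318771, minus strand), was at 1811 against 117 CPM (log2 ratio 3.95, interval 3.92 to 3.98) and at 374, 122 and 669 CPM in the other libraries, none of which reached the dynamic suspension level. The mitophagy receptors Bnip3† and Bnip3l† were at 640.5 against 39.1 and 238 against 62.5 CPM. Vegfa, the main angiogenic factor, was at 132 against 43.6 CPM, the vasodilator Adm at 24.5 against 10.1 CPM and Car9, a carbonic anhydrase of hypoxic tumour cells, at 18.5 against 6.41 CPM. Hmox1, haem oxygenase, was at 471 against 46.4 CPM (log2 ratio 3.35), Hilpda, which inhibits fat breakdown, at 53.4 against 15.7 CPM and Ndrg1, a growth-arrest protein, at 107 against 25.9 CPM. The collagen hydroxylase gene P4ha1 was at 248 against 112 CPM, and its relatives P4ha2, Plod1 and Plod2 had ratios from 0.30 to 0.76 that did not pass 2-fold. The lower members included Tfrc, the transferrin receptor (104 against 364 CPM), and Car12, a carbonic anhydrase (0.381 against 2.87 CPM).

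In glucose uptake and glycolysis 15 of 26 genes were higher and 0 lower (median 1.09), and among the 16 of own sequence 9 were higher (median 1.53). Many abundant glycolytic genes have processed pseudogenes and carry a dagger. Aldoc, an aldolase isoform, had the largest ratio at 143 against 8.88 CPM (log2 ratio 4.0, interval 3.88 to 4.14), beside 134, 16.4 and 143 CPM in the other libraries. At entry to the pathway, the transporter gene Slc2a1 was at 166 against 46.2 CPM and Hk1, a hexokinase, at 479 against 125 CPM, with Hk2 at 248 against 129 CPM short of 2-fold. Pfkl, the liver-type phosphofructokinase of the committed step, was at 1468 against 243 CPM (log2 ratio 2.59, interval 2.57 to 2.62), Pfkp at 479 against 160.0 CPM and Pfkm at 150.4 against 77.2 CPM, the last not called. Further along the pathway, Tpi1† was at 4419.9 against 1176 CPM, Aldoa† at 5170.3 against 1959 CPM and Pkm† at 4572 against 2245 CPM, 3 of the 10 largest gains in CPM of any gene, with Pkm short of 2-fold when scaled by total counts (log2 ratio 0.96). At its end, Ldha†, which makes lactate, was at 2318 against 1101 CPM and Slc16a3, which exports it, at 191 against 39.1 CPM. Pdk1, a kinase that inhibits pyruvate dehydrogenase, was at 160.1 against 29.2 CPM (log2 ratio 2.45). Slc2a3, another glucose transporter, went the other way at 17.7 against 30.2 CPM (log2 ratio -0.77, not called).

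**Figure D3:**
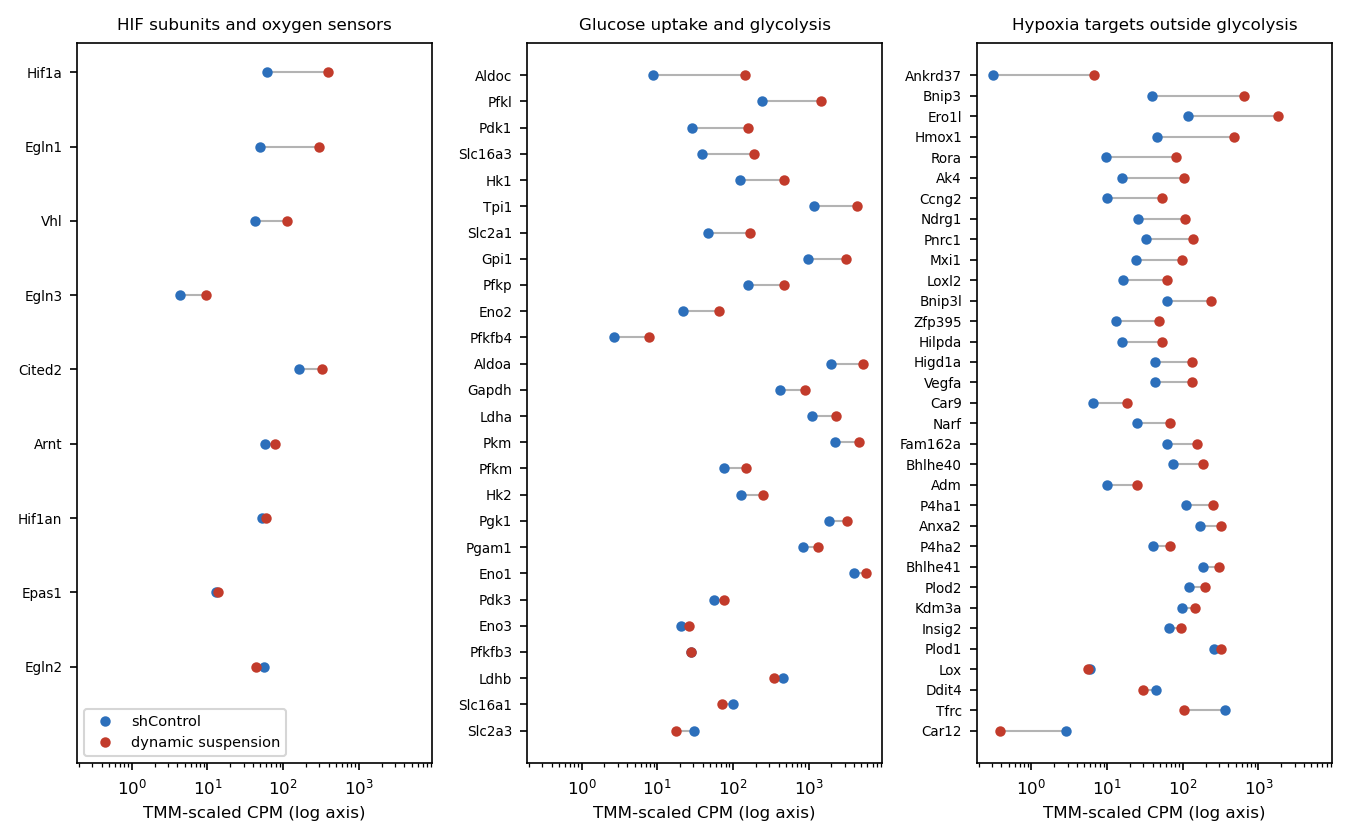
For measured genes of 3 lists (those reported here) the TMM-scaled CPM of shControl (blue) and dynamic suspension (red) are joined by a line on a log axis, sorted by ratio, 1 library per colour. Red lies to the right for Hif1a (390.5 against 61.3 CPM), Aldoc (143 against 8.88 CPM) and Ero1l (1811 against 117 CPM), and to the left for Tfrc (104 against 364 CPM).

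Upstream sequences of Egln1 (chr8:124949276-124949365, minus strand) and Bnip3 (chr7:138909567-138909656, minus strand) are shown for the hypoxia response core ACGTG in capitals. In Bnip3 the core lies on both strands within CACGTG.
Egln1: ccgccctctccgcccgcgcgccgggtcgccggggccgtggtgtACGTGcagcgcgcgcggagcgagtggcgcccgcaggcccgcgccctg
Bnip3: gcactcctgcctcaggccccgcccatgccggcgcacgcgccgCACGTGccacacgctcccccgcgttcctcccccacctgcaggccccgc

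The core ACGTG (either strand) lay in 5 of 8 windows of HIF subunits and sensors, 12 of 25 of glycolysis genes (48.0%) and 12 of 24 of the other hypoxia targets (50.0%), against 26.5% of all windows.

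Among lipid genes all those called were higher. Of 30 genes of cholesterol synthesis, uptake and export 13 were higher and 0 lower (median 0.89), with 8 of 22 higher among those of own sequence. Abca1, which exports cholesterol, led at 298 against 37.3 CPM (log2 ratio 3.0, interval 2.94 to 3.06) and stood at 53.9 CPM in conventional 3D culture. Mylip, a ubiquitin ligase of cholesterol uptake, was at 57.9 against 21.6 CPM and Insig1, which holds back the SREBP factors, at 168 against 59.5 CPM. Among synthesis enzymes Mvd, Hsd17b7 and Msmo1 were at 42.9 against 13.1, 36.7 against 12.5 and 147 against 56.7 CPM. The factor gene Srebf2 (286 against 186 CPM) did not pass 2-fold. The sterol response element core (TCACNCCAC, either strand) lay in 1 of 22 windows of the cholesterol list (4.55%), against 1.04% of all. Of 19 fatty acid genes 10 were higher and 0 lower (median 1.03), and in own-sequence genes 8 of 17 (median 0.50). The higher ones included the desaturases Scd1 (216 against 39.4 CPM) and Scd2 (2599 against 647 CPM) and Fasn, fatty acid synthase (1001 against 369.5 CPM, log2 ratio 1.44).

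The stress program of the factor Atf4 was split. Of 40 genes of this program, amino acid supply and tRNA charging, 4 were higher and 13 lower (median -0.69). The higher ones were Ddit3, the stress-induced factor CHOP (391 against 54.3 CPM, log2 ratio 2.85), Ppp1r15a, which restores translation (67.4 against 29.1 CPM), Nupr1 (59.6 against 25.8 CPM) and Atf3 (33.2 against 14.8 CPM). The lower ones included enzymes and carriers of amino acids: Cth, of cysteine synthesis (2.90 against 21.3 CPM), Psat1 and Shmt2, of the serine and glycine pathway (65.9 against 306 and 93.1 against 371 CPM), Mthfd2, of mitochondrial folate (112 against 388 CPM), Asns (192 against 399 CPM) and the glutamine carrier Slc1a5 (73.5 against 181 CPM). Atf4 itself was at 270.1 against 483 CPM (log2 ratio -0.84, not called). The ATF4 composite element (TGATGNAA, either strand) lay in 13 of 33 windows (39.4%), against 2.06% of all.

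Protein folding in the endoplasmic reticulum stood near the background, with 4 of 27 genes higher, 0 lower and a median of 0.11. Dnajb9†, a co-chaperone, was at 124 against 22.1 CPM, and the stress sensor Ern1 (IRE1) at 81.5 against 30.2 CPM, while Hspa5, the main chaperone, was at 1442 against 1003 CPM (log2 ratio 0.52). Of 19 heat shock genes 4 were higher and 5 lower. The mitochondrial chaperonin genes Hspd1† and Hspe1† (345 against 1414 and 68.3 against 235 CPM), Hsp90aa1† (644 against 1854 CPM) and the factor gene Hsf1 (36.4 against 83.9 CPM) were lower, and Hspb8 (16.3 against 7.37 CPM) was higher.

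Most listed genes of ribosome production were lower in dynamic suspension. Of 30 ribosome biogenesis and nucleolar genes 19 were lower and 0 higher (median -1.33), against 14.9% of all genes lower. Dkc1, which modifies ribosomal RNA and stabilises telomerase RNA, was at 11.0 against 88.9 CPM (log2 ratio -3.01, interval -3.13 to -2.89), Gar1 of the same complex at 5.64 against 28.3 CPM, Nop58 at 44.5 against 216 CPM and Ncl, nucleolin, at 397 against 1087 CPM. Myc, a factor known to induce these genes, was at 16.8 against 70.1 CPM (log2 ratio -2.06, interval -2.16 to -1.96). Among 79 ribosomal protein genes 12 were lower, a share near the 14.9% of all genes, and 0 higher (median -0.63). Only 9 of them are of own sequence, such as Rpl8 (801 against 1477 CPM). Of 40 nuclear-encoded respiratory chain genes 1, Ndufa4 (136 against 392 CPM), was lower (median -0.43).

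Immediate early genes, induced within minutes by growth factors or stress, were higher in 13 of 24 cases and lower in 2 (median 1.11). Fosb was at 20.5 against 0.438 CPM (log2 ratio 5.45, interval 5.00 to 6.15), and the AP-1 subunit genes Fos and Jun at 91.4 against 11.2 and 296 against 47.8 CPM. Fosb was highest in dynamic suspension, the other libraries standing at 2.99, 0.591 and 3.51 CPM. Egr1 was at 92.3 against 22.5 CPM, Ier3 at 259.6 against 46.4 CPM and Zfp36, which degrades cytokine mRNA, at 36.2 against 8.96 CPM. Ccn1 (24.8 against 56.6 CPM) and Ier5 (5.53 against 13.8 CPM) were lower. An AP-1 site (TGANTCA, either strand) lay in 0 of the 21 promoter windows of this list, against 4.41% of all windows. Of the MAPK feedback and output genes, 2 of 22 were higher, 6 lower and 14 neither (median -0.47). Etv4, a growth-factor-induced factor, was at 0.0662 against 6.92 CPM (log2 ratio -6.13, interval -8.59 to -5.34), with 4 counts in dynamic suspension, and its relative Etv5† at 2.55 against 24.6 CPM. The feedback inhibitor Spry4 was at 2.76 against 12.3 CPM and the receptor gene Epha2 at 0.463 against 8.62 CPM, whereas Dusp1, a phosphatase also induced by stress, was higher at 26.3 against 6.93 CPM.

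In the p53 pathway, more target genes were lower than higher, and more regulators were higher than lower. Trp53†, which overlaps another gene, was at 116 against 201 CPM (log2 ratio -0.79, interval -0.84 to -0.75) and Mdm2, the ligase that degrades p53, at 57.7 against 114 CPM (-0.98, interval -1.04 to -0.93), neither past 2-fold, though Mdm2 passed it when scaled by total counts (-1.05). The p53 target list had 4 of 34 genes higher and 10 lower (median -0.61), against 13.8% and 14.9% of all genes. Among targets of own sequence 6 of 25 were lower. Aen, a nuclease (36.6 against 146 CPM), Zmat3 (62.9 against 169.7 CPM), Bax†, which permeabilises mitochondria (64.9 against 144 CPM), and Bbc3, the killer PUMA (6.72 against 14.1 CPM), were lower. Ckap2† (4.80 against 48.0 CPM), also lower, is a spindle protein. Trp53inp2, which acts in autophagy (366 against 133 CPM), and Sesn1, an inhibitor of mTORC1 signalling (49.0 against 19.3 CPM), were higher, and Cdkn1a lay near a ratio of 1, as given above. Of 18 regulators of p53 5 were higher, 0 lower and 13 neither, and their median log2 ratio was 0.10. The higher ones were led by the kinase Hipk2 (117 against 22.2 CPM, log2 ratio 2.40) and the co-activator Ep300 (138 against 58.2 CPM).

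Pigment-cell genes were called in both directions. Of 30 melanocyte and melanosome genes 4 were higher and 3 lower (median 0.12), a share not far from the 28.7% called in all genes. The lineage factors Mitf and Sox10 were at 350.4 against 314 and 698 against 487 CPM, Tyr, which encodes tyrosinase, at 1009.5 against 942 CPM and Dct at 6619 against 6396 CPM. Tyrp1 was lower at 4401 against 9013 CPM (log2 ratio -1.03, interval -1.04 to -1.03), the largest loss in CPM of any gene. It fell short of 2-fold with TMM over the 2 libraries (-0.99) and with upper quartile scaling (-0.94). Also lower were Mlana at 385 against 1219 CPM and Kit, the stem cell factor receptor, at 0.579 against 4.84 CPM. Ptgds, prostaglandin D synthase, was higher at 3224 against 468 CPM (log2 ratio 2.78), as was Met, the hepatocyte growth factor receptor, at 2225 against 678 CPM. Markers of Schwann cells and neural crest, which melanocytes partly share, had 5 of 9 genes higher, including S100b (341 against 65.5 CPM) and Erbb3 (182 against 71.8 CPM).

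In the stem-like and drug efflux list, 2 of 19 measured genes were higher and 4 lower (median -0.04), not far from the 13.8% and 14.9% of all genes. Kdm5b, a histone demethylase of slow-cycling melanoma cells, was at 173 against 43.8 CPM (log2 ratio 1.98) and Sox9 at 54.7 against 14.7 CPM. Aldh1a3 (0.695 against 6.64 CPM), Abcb1b†, an efflux pump (3.08 against 16.1 CPM), Alcam (4.85 against 14.6 CPM) and Myc, given above, were lower. Cd44 (286 against 439 CPM) and Itgb1 (525 against 539 CPM) did not pass 2-fold, and 11 of the 30 listed genes, Pou5f1, Nanog, Prom1 and Abcb5 among them, lay below 1 CPM.

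Matrix, adhesion and invasion genes went both ways. Of 32 matrix genes 4 were higher and 4 lower, near the 13.8% and 14.9% of all genes. The lower ones included Fn1, fibronectin (21.3 against 84.9 CPM), and the basement membrane collagen Col4a1 (19.9 against 43.3 CPM). The fibroblast markers had 0 higher and 0 lower, with Col1a1 at 4.72 against 8.15 CPM and Col3a1 at 8.23 against 8.70 CPM. Of 21 proteases and inhibitors 6 were higher and 5 lower. Hpse, heparanase, which cuts heparan sulfate in the matrix, was at 349.8 against 28.9 CPM (log2 ratio 3.6, interval 3.53 to 3.67) and at 997 CPM in conventional 3D culture. Plaur, the urokinase receptor, was lower at 2.37 against 16.4 CPM. Among adhesion genes Itgb3 (145 against 41.8 CPM) and Cdh19 (143 against 55.4 CPM) were higher and Mcam (152 against 442 CPM), Itga4 (51.7 against 124 CPM) and L1cam (3.10 against 17.3 CPM) lower. In the mesenchymal and invasive list, with 5 of 14 genes higher and 3 lower, Tgfb1 (88.7 against 23.2 CPM) was higher and Vim (483 against 1065 CPM) and Snai2 (0.844 against 4.45 CPM) lower. Of 24 YAP and TEAD genes 4 were higher and 5 lower, not far from the shares of all genes. The targets Ccn2† (3.48 against 23.1 CPM) and Amotl2 (18.6 against 72.0 CPM) were among the lower.

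**Figure D4:**
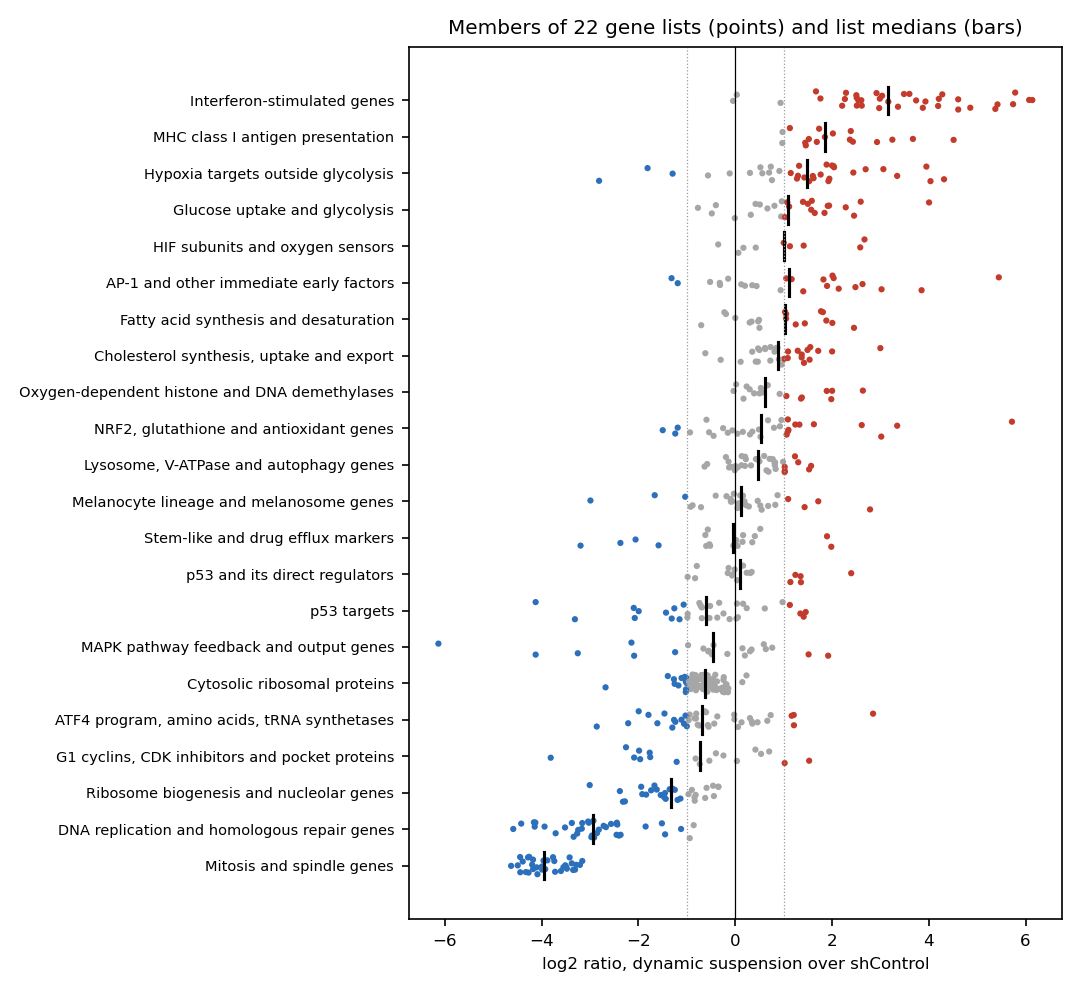
Points are measured members of 22 lists by log2 ratio of dynamic suspension over shControl (red called higher, blue called lower, grey not called), bars are list medians and dotted lines mark 2-fold. Medians run from -3.94 for mitosis genes to 3.16 for interferon-stimulated genes, with melanocyte genes at 0.12.

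Redox, iron and oxygen-dependent enzyme genes were more often higher than lower, where 13.8% of all genes were higher and 14.9% lower. Of 31 antioxidant genes 11 were higher and 3 lower (median 0.52). Gsta3, a glutathione transferase, was at 29.9 against 0.536 CPM (log2 ratio 5.72, interval 5.31 to 6.34) and at 1.80, 0.131 and 1.37 CPM in the other libraries, while Gsr (19.2 against 45.3 CPM), Txnrd1 (203 against 463 CPM) and Txn1, thioredoxin (134 against 377 CPM), were lower. In iron handling 5 of 14 genes were higher and 1 lower (median 0.42). Fth1, the ferritin heavy chain, was at 6367 against 2021 CPM (log2 ratio 1.66) and the importer Slc11a2 at 731 against 195 CPM, opposite to Tfrc. Of 18 oxygen-dependent demethylase genes 7 were higher and 0 lower (median 0.62), led by Kdm7a (146 against 23.5 CPM) and Kdm4b (169 against 42.2 CPM). Lysosome and autophagy genes had 7 of 37 higher and 0 lower (median 0.47), with Ctsb†, cathepsin B, at 3375 against 1139.5 CPM and Map1lc3a at 52.2 against 18.1 CPM. Retinoid genes had 3 of 12 higher, Rarb† (64.1 against 10.8 CPM), Dhrs3 (211 against 45.3 CPM) and Cyp26b1 (28.0 against 13.4 CPM), all induced by retinoic acid, and 1, Aldh1a3, lower. Mitochondrially encoded genes took 6.17% against 3.93% of the counts, and of the 13 protein-coding ones 1, mt-Co1† (29348 against 12302 CPM), was higher beyond 2-fold. Of measured mitochondrial ribosomal RNAs 2 of 2 were higher (median 3.72), and of mitochondrial tRNAs 8 of 9 (median 2.18). The ribosomal RNA CT010467.1† was at 3228 against 895 CPM, 1 of the 10 largest CPM gains. Whether poly(A) selection differed between the libraries was not tested.

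By CPM difference, the largest gain after mt-Co1 was that of Gpnmb, a melanosomal glycoprotein (15738 against 9828 CPM, log2 ratio 0.68), and the losses after Tyrp1 included Eef1a1†, an elongation factor (9451 against 11372 CPM), Pmel, the melanosome fibril protein (4526 against 5989.6 CPM), Actb† (983 against 2056 CPM) and Tubb5, a tubulin (533 against 1558 CPM).

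Some genes were near absent from 1 library. Flrt1, an adhesion protein, had 427 counts against 0, about 145-fold higher with shControl set at the floor of 3 counts. Tg, thyroglobulin, had the lowest ratio of the 15 at 0.348 against 21.0 CPM (log2 ratio -5.79, interval -6.61 to -5.30), with 1.82, 138 and 1.49 CPM in the other libraries, so that the library labelled knockdown was the highest of the 5. Slc35f1 was at 1.13 against 25 CPM, with 1.60, 78.6 and 3.33 CPM in the same order.

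Across the genes called, promoter motifs differed by direction. Over protein-coding genes of own sequence with a window, a CHR element lay in 20.9% of the 931 lower genes and 31.3% of the 284 lower beyond 4-fold, against 11.9% of the 5191 not called and 9.77% of the 942 higher. An E2F site lay in 10.6% of genes lower beyond 4-fold and 3.18% of those not called. The interferon response element lay in 7.36% of the 231 genes higher beyond 4-fold and 2.18% of those not called, and an AP-1 site in 7.79% and 4.06%. The hypoxia core ACGTG lay in 26.0% and 27.0% of the same groups. These shares are a description and were not tested.

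**Figure D5:**
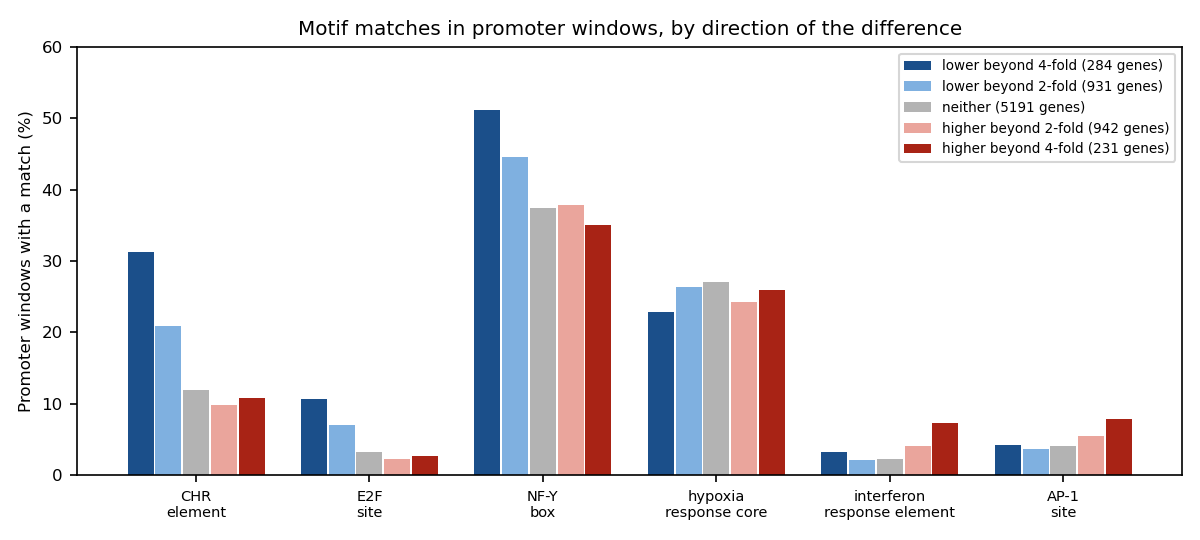
Bars give the share of promoter windows (%) with at least 1 match, for 6 motifs and 5 groups of protein-coding genes of own sequence, the 4-fold groups being part of the 2-fold groups. CHR matches go from 9.77% in genes higher beyond 2-fold to 31.3% in genes lower beyond 4-fold, and the hypoxia core stays between 22.9% and 27.0%.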

How the data were processed

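RNA of 5 pooled B16F10 cultures was sequenced as strand-specific poly(A)-selected libraries (paired 150 bp reads), per the labels' protocols. The submitters' processing notes name StringTie, HISAT2 and cutadapt, and the builds mm10 and GRCm38.p6. The program that counted reads, its annotation and its strand setting were not given in the sources used here. The deposited values of conventional 3D culture, dynamic suspension and shControl are estimated counts by their pattern (whole numbers, more genes at 4 than at 3 or 5). Those of the 2 HIF-1α libraries are plain deposited counts, so levels set across these kinds may differ in unit.

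All 54100 identifiers matched GENCODE M21. TMM factors over the 5 libraries came from edgeR 4.0.16 in R 4.3.3, and log2 ratios used a prior count of 2. Intervals are exact conditional binomial (Clopper-Pearson, 95%). The ratio and call steps were tested on simulated data. The 44 gene lists (37 of pathways, 7 of cell type markers) and the members were chosen with earlier results of these data known. Genes named are Hif1a, Trp53, Mdm2 and Cdkn1a. Others are genes among the 15 highest and 15 lowest ratios (protein-coding, own sequence, mean of at least 10 CPM over both libraries). Further ones are genes among the 10 largest CPM differences in each direction, and called or defining list members. Zbp1, Flrt1, members named as not called and observations on families were chosen after their values were seen. Some list members are counted but not reported here by name. Promoter windows are RefSeq's. Alternatives were 4 other scalings (DESeq2 1.42.0 size factors among them), 2 other prior counts, 2 other filters and restriction to protein-coding genes of own sequence. The deposited sum of estimated counts was used as depth.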

Additional observations from a re-analysis of the deposited data

How the results depend on the processing

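Under other scalings the counts of genes went from 1624 higher and 2117 lower (total counts) to 2075 and 1671 (upper quartile), all within 1.5 times of 1787 and 1930. The median log2 ratio of all genes went from -0.09 to 0.07. Without a filter on low counts 3228 genes were higher and 3576 lower, and with a mean of at least 10 CPM 1105 and 1233, as more or fewer genes enter. With protein-coding genes of own sequence, 1161 genes were lower and, as members drop out, 9 glycolysis, 8 cholesterol, 5 class I and 6 p53 target genes were called in their main direction. With at least 10 CPM, 6 p53 targets were lower. In all, 125 of 135 counts recomputed for all genes and 13 main lists stayed within 1.5 times. Of the 54 genes named by rank or fixed, Cdkn1a turned sign, to -0.03 with total counts, and no called gene did. Tyrp1 fell short of 2-fold with TMM over the 2 libraries (-0.99) and the upper quartile (-0.94), Pkm with total counts (0.96) and Actb with the upper quartile (-0.97). Mdm2 passed it with total counts (-1.05).

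Of 375 list medians recomputed 13 turned sign. With TMM over the 2 libraries, medians were 0.0027 (stem-like genes and adhesion genes) and 0.022 (BCL2 family and caspases). With the upper quartile they were 0.058 (stem-like genes and adhesion genes), 0.031 (matrix genes), 0.077 (BCL2 family) and 0.016 (fibroblast markers). The protease median was -0.060 with total counts and -0.0072 in own-sequence genes, where that of adhesion genes was 0.13. The Notch median went from 0.31 to -0.17 without a filter and the BCL2 family median 0.048 at 10 CPM. The cause was not tested. No paired analysis was possible because each group has 1 library, and no replicate could be left out.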

Other observations

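Gene families taken by their symbols, chosen after the values were seen, gave further groups. Of 15 genes of glycogen metabolism 9 were higher and 0 lower in dynamic suspension (median log2 ratio 1.23), among them Gys1, muscle-type glycogen synthase (359 against 79.1 CPM), Gbe1, the branching enzyme (245 against 46.4 CPM), and Pygl, a glycogen phosphorylase (25.8 against 4.46 CPM). Of 19 glutathione S-transferases 15 were higher and 1 lower (median 1.66), with 8 higher among the 10 of own sequence. Of 10 host RNAs of small nucleolar RNAs 7 were lower, as Gas5 (82.1 against 176 CPM) and Snhg17 (9.86 against 42.9 CPM), beside the nucleolar genes. Of 19 nucleoporins 10 and of 8 subunits of the CCT chaperonin 5 were lower, with 0 higher in both families. Among 33 kinesins 13 were lower and 3 higher. Sema7a, a membrane-bound semaphorin, stood at 425 against 35.2 CPM (log2 ratio 3.59) and Prkca, a protein kinase C, at 184 against 16.5 CPM. The nuclear RNA Malat1 was at 328 against 25.8 CPM and at 82.3, 116 and 1240.0 CPM in conventional 3D culture and the libraries labelled knockdown and overexpression.

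Of the remaining lists, the BCL2 family and caspases had 5 of 22 genes higher and 5 lower (median -0.02), and the Notch genes 1 of 13 higher and 3 lower (median 0.31, which was -0.17 without a filter on low counts). Histone genes had 8 of 15 higher and 2 lower, with 4 of own sequence (median 0.36, against 1.10 over the list), and their mostly unpolyadenylated mRNAs enter poly(A)-selected libraries in part only. By annotation class, 199 of 805 processed pseudogenes were lower and 58 higher, 51 of 193 long intergenic RNAs were higher and 33 lower, and 45 of 152 antisense RNAs were higher and 21 lower, with reads of an antisense gene and its partner not told apart without the strand setting. Pseudogenes took 4.0% against 3.44% of the counts. Fn3k, a kinase of glycated proteins, had 379 counts against 3. Gm15564 had 0 against 158, about 51.7-fold lower with dynamic suspension set at the floor of 3 counts.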
